A study of Mus musculus with 2 samples.

Results

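A set of 7 genes that mark the nerves of the ureter was followed in explanted newborn mouse ureters in which Sonic hedgehog (SHH) signaling was inhibited. They were chosen by name: the Schwann cell genes Sox10 and S100b, the growth factor receptor genes Ngfr and Erbb4, and the neuronal genes Th, Tubb3 and Elavl4. They are read by 9 of the 39428 gene probes on the arrays, which cover 30011 named genes, and all 9 probes are reported. Where a gene has a pair of probes, the brighter one over the 4 channels stands for it and the other is given beside it.

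The ureters came from wildtype NMRI pups on the day of birth (P0) and were cultured for 18 h, either with 10 µM cyclopamine, which binds and inactivates SMO, the membrane protein that passes the SHH signal on, or as control with the solvent DMF at 1:1000. There were 2 arrays, each of which compared 1 pool of treated ureters with 1 pool of control ureters, so each group held 2 pools. In replicate 1 the pools were from female pups with the control in the green dye, and in replicate 2 they were from male pups with the control in the red dye. Sex, dye orientation and replicate therefore cannot be told apart. The labels call the compound cyclopamine in titles and treatment fields, but the source name of the treated channel carries another inhibitor's name, IWP-2.

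The ureter is supplied by autonomic and sensory fibers, which run in its outer coat and between its muscle cells and are wrapped by Schwann cells. Both cell types descend from the neural crest, and most of the neurons have their cell bodies outside the organ. An explanted ureter thus carries Schwann cell nuclei along with cut axons and, at most, the few ganglion cells that lie in or beside its wall. Sympathetic axons make noradrenaline and depend on target-derived trophic factors, whereas Schwann cells depend on neuregulin, which they sense through ERBB3 paired with ERBB2.

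Known targets of SHH signaling were lower in the treated pools. Gli1 fell by 1.96 on the log2 scale, Ptch1 by 1.31 and Hhip by 1.15, and limma, a linear model fitted over all probes, called all 3, with adjusted p of 1.76e-08, 0.000248 and 0.0068. The arrays differed for Hhip, with -0.31 in replicate 1 and -1.99 in replicate 2. Its call was lost with robust eBayes (adjusted p 0.281 in limma) and with normexp at an offset of 50 (0.157), among others. A dimmer probe of Hhip had -0.99 and -2.32 (adjusted p 8.13e-06 in limma), and a dimmer one of Ptch1 had -0.54 and -1.42 (0.0149). The dimmer probe of Gli1 was not well above background. Replicate 1 was 5.35-fold brighter than replicate 2 at the 75th percentile of control intensity, so levels are compared only within an array. The log2 ratios of the 2 arrays correlated with Pearson's r = 0.24 over 25975 probes, which share the arrays and are not independent. Longer genes had higher ratios in replicate 1 (Spearman's rho 0.44 over 22468 probes), but hardly in replicate 2 (0.03). Urothelial and smooth muscle markers were well above background in all 4 channels. Of 6 nephron and collecting duct genes, only Aqp2 was well above background in all channels, and 4 were so in none.

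Each value below is read by a probe of 60 bases, on RNA that was amplified from its poly(A) tail. The last 30 bases of the probes other than the dimmer Erbb4 probe are printed, 5' to 3', to show which stretch of the message was measured. Capitals mark AATAAA, the common form of the poly(A) signal, where the printed bases hold it.

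Sox10: tccagcgataccttAATAAAgtacgtagct
S100b: tattcaaatagcgacgttttaaataatcca
Ngfr: ttcatgttccctgacacttcccctttgcat
Erbb4, brighter probe: ctttttgttacatgaatctgtcagaaatat
Th: catgctgtattctaccctgattattatctc
Tubb3: acttAATAAAgttactgctgtctgtcagat
Elavl4, brighter probe: tgtgtgtgtgtatgtgtacatataatataa
Elavl4, dimmer probe: ttaagatgaccattcgctcatttgaagaag

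The motif was searched on the probe strand of the whole 60 bases. It occurred in 2 of the 9 probes, those of Sox10 and Tubb3, and in 12.6% of all 39428 probes (4965 probes). The array annotation places the probes on mouse build mm9 and gives no exon or UTR for them, only the base of the transcript at which each one starts. The Sox10 probe lies at chr15:78985518-78985577 (base 2478 of the transcript), S100b at chr10:75723783-75723842 (base 1379) and Ngfr at chr11:95430211-95430270 (base 3270). Th lies at chr7:150078703-150078762 (base 1675) and Tubb3 at chr8:125945850-125945909 (base 1662). The brighter Erbb4 probe lies at chr1:68078805-68078864 (base 11932). The Elavl4 probes lie at chr4:109877455-109877514 (base 2921) and chr4:109878558-109878617 (base 1818).

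Ureter explants expressed 6 of the 7 genes at levels well above background in every channel, in 4 of 4 spots on each array, and Erbb4 in none. None of the 6 was called in either direction after inhibition of SHH signaling by limma with Benjamini-Hochberg adjustment over all probes. At an unadjusted p under 0.05, limma returned 1 of them, S100b, which was lower, where 4.47% of all probes were lower and 4.92% higher. After adjustment, among all 25975 probes tested, 0.77% were called lower and 0.454% higher. No member passed the filter used here either, which was modeled on the study's limits for control intensity and fold change. It asked for a control intensity over 100 with both arrays shifted the same way by 1.5-fold or more. In the processed intensities, 0.63% of 13661 bright genes (86 genes) passed it as lower and 0.212% as higher. The study reports a longer list of lower genes, so this version, called the study's filter below, need not match the original. With both arrays brought to a common 75th percentile, 112 genes passed as lower, S100b among them. S100b, Th and Tubb3 were below control on both arrays, Sox10 was above control on both, and Ngfr and Elavl4 went opposite ways. That makes 3 of 6 lower on both, beside 28.9% of all 19398 measured genes, and 1 of 6 higher on both, beside 28.6%. The other 2 of 6 went opposite ways, beside 42.4% of all measured genes. The counts of the lists below stand beside the same shares of all genes. The median log2 ratio over the 6 genes was 0.01 in replicate 1 and -0.21 in replicate 2, while over all measured genes it was -0.0026 and -0.0002.

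**Figure D1:**
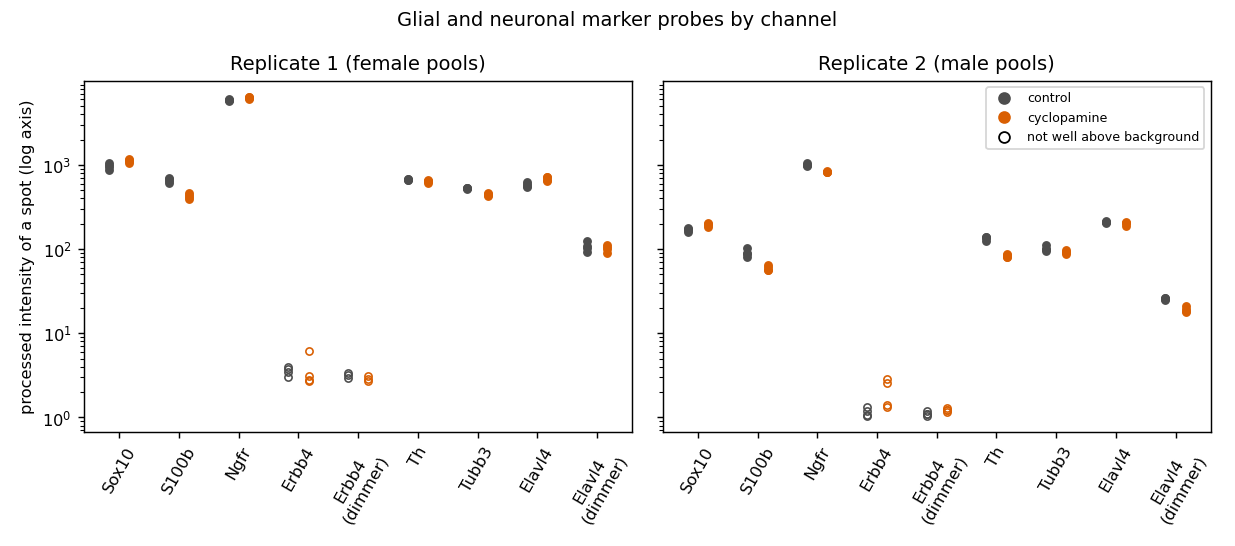
Processed intensity of every spot (log axis) for the 9 probes in the control (grey) and cyclopamine (orange) channels of the female pools (replicate 1, left) and the male pools (replicate 2, right). Open circles are spots not well above background, which are all the Erbb4 spots; the brightness of the arrays differs 5.35-fold at the 75th percentile.

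Sox10 encodes the transcription factor that specifies and maintains Schwann cells and their precursors. Its probe read 966 in the control and 1118 in the treated pool of replicate 1, and 170 and 195 in replicate 2. The treated pool was thus slightly brighter on both arrays, with a log2 ratio of cyclopamine over control of 0.21 and 0.19. The mean was 0.20 ± 0.01 (SD, n = 2 arrays) with a limma 95% interval from -0.25 to 0.65 and an adjusted p of 0.821. The arrays thus gave close values, but the interval, which borrows the spread of all probes, takes in 0 as well as a 1.5-fold rise.

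S100b encodes a calcium-binding protein of mature Schwann cells that is also made in fat cells, cartilage and melanocytes. Its probe read 659 in the control and 430 after cyclopamine in replicate 1, and 89.8 and 59.6 in replicate 2. The treated pool was dimmer on both arrays, 1.53-fold in replicate 1 and 1.51-fold in replicate 2. All 8 spots lay below 0 on the log2 scale, from -0.72 to -0.55 in replicate 1 and from -0.66 to -0.52 in replicate 2. The mean log2 ratio was -0.60 ± 0.02 (SD, n = 2 arrays), with a limma interval from -1.06 to -0.15, an unadjusted p of 0.00986 and an adjusted p of 0.261. In the study's filter S100b failed on intensity alone, because its control in the dimmer array read 89.8. Without the intensity limit, 0.99% of all measured genes (192 genes) were at least 1.5-fold lower on both arrays, and S100b was 1 of them. With a limit of 50, or with both arrays brought to a common 75th percentile, S100b passed the filter. The 2 glial markers parted in the same way on both arrays: the log2 ratio of S100b minus that of Sox10 was -0.83 in replicate 1 and -0.78 in replicate 2, a gap that was not tested.

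**Figure D2:**
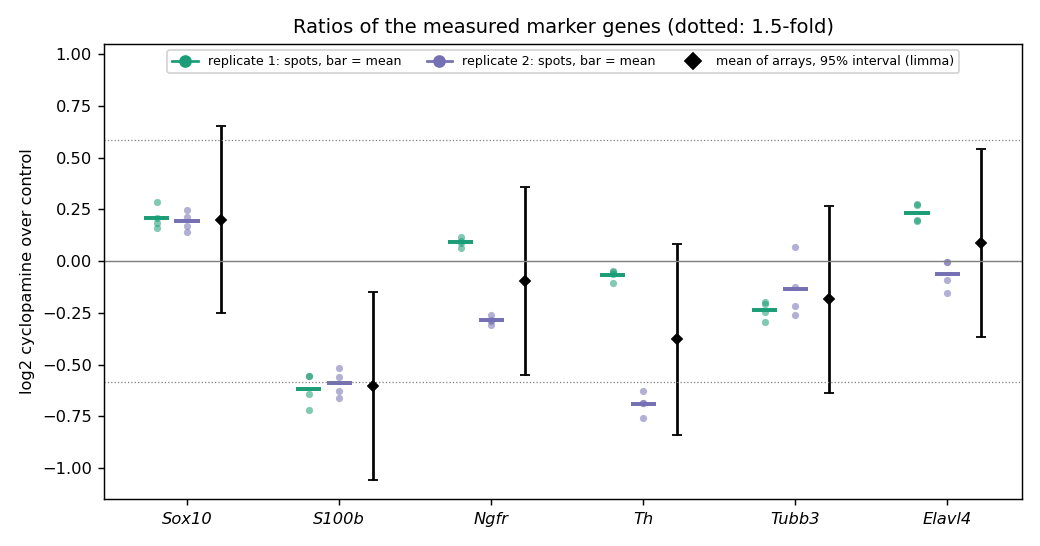
Log2 ratio of cyclopamine over control for the 6 measured genes: dots are spots, coloured bars the mean of replicate 1 (green) and replicate 2 (violet), and black diamonds the mean of both arrays with limma's 95% interval. S100b sits near -0.60 on both arrays, Sox10 near 0.20 on both, and Th at -0.07 in replicate 1 but -0.69 in replicate 2.

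The other genes of the glial lineage went both ways. Of 19 listed, 18 were measured, and 5 were lower on both arrays, 5 higher on both and 8 opposite. None was called by limma or passed the study's filter. Their median log2 ratio was 0.06 in replicate 1 and -0.02 in replicate 2. Mbp and Pmp22, which encode parts of myelin, were well above background in all channels.

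The 3 glial genes with the largest mean ratios did not pass the test. Gfap, an intermediate filament of non-myelinating Schwann cells, had log2 ratios of -0.61 and -0.98 with an adjusted p of 0.066 in limma. This probe was dim, with controls of 86.2 and 34.8, and its mean of -0.79 shrank to -0.44 with normexp at an offset of 50. A further probe of Gfap had a mean of 0.15 and a last one was not well above background. Fabp7, a fatty acid-binding protein of Schwann cell precursors and immature Schwann cells, had -0.92 and -0.46 (adjusted p 0.155). Erbb3, the neuregulin receptor of Schwann cells, stood above control with 1.18 and 0.34 (adjusted p 0.107). Foxd3 and Cdh19, which mark the neural crest-derived precursors along with Sox10, had ratios of 0.20 and 0.27, and of 0.48 and 0.32. From the same list, Gfra3 was lower on both arrays (-0.40 and -0.49), and Sox2 went opposite ways (-0.20 and 0.45). Foxd3, Cdh19, Gfra3, Sox2, Mbp and Pmp22 were picked for mention after their values were seen.

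Markers of the other cells that can make S100b were set beside it. Of 5 fat cell genes, 4 were measured and all 4 were lower on both arrays, with a median log2 ratio of -0.47 in replicate 1 and -0.91 in replicate 2. Their summed control intensity was 47887 in replicate 1 and 8423 in replicate 2, against 39471 and 7052 after cyclopamine. Without Fabp4, which gave most of it, the sum went from 2957 to 1686 and from 148 to 88.7. Adipoq, the fat cell hormone adiponectin, went from 2639 to 1456 and from 122 to 77.7, which passed the study's filter, with an adjusted p of 0.097 in limma. Cidec, a lipid droplet protein, fell by 1.25 on the log2 scale, with -0.46 in replicate 1 and -2.04 in replicate 2 (adjusted p 0.0022 in limma), but it was well above background in only 3 of 4 channels, and its intensity in replicate 2 was 7.56 in the control and 1.83 after treatment. Fabp4, a fatty acid carrier of fat cells, had -0.25 on each array, and Lep was not well above background in any channel.

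Cartilage genes gave 3 of 5 measured with a median log2 ratio of -0.20 and -0.48. Sox9 and Col9a1 were lower on both arrays and Col2a1 higher on both, while Matn1 was in no channel and Acan in 1 of 4. Their summed intensity went from 7404 to 6008 and from 1473 to 964. Melanocyte genes gave 3 of 5 measured, all 3 higher on both arrays (median 0.20 and 0.06), while Dct was in no channel and Mlana in 1. The part of any of these cells in the S100b value was not tested. In bulk RNA, moreover, fewer cells of a type and less RNA per cell cannot be told apart.

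**Figure D3:**
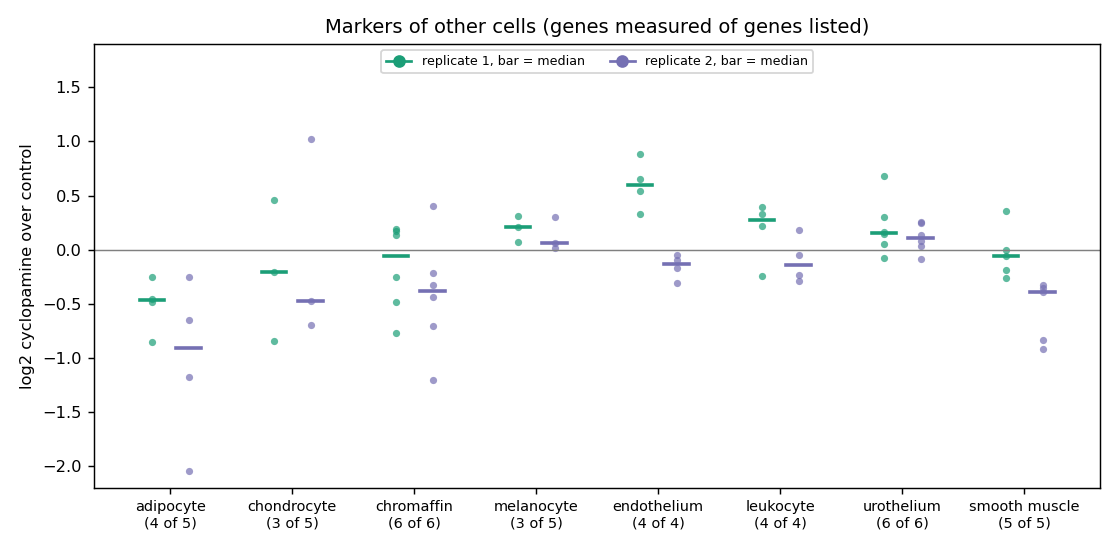
Log2 ratio of cyclopamine over control for markers of other cell types in replicate 1 (green) and replicate 2 (violet); each dot is 1 gene, bars are medians and the axis labels give how many listed genes were measured. The 4 fat cell genes lie below 0 on both arrays, whereas the endothelial genes lie above 0 in replicate 1 and below it in replicate 2.

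Ngfr encodes the low-affinity neurotrophin receptor, which Schwann cells, sympathetic and sensory neurons and some mesenchymal cells carry. Its probe read 5885 in the control and 6275 after cyclopamine in replicate 1, and 1010 and 829 in replicate 2. The treated pool was the brighter one in replicate 1 and the dimmer one in replicate 2. The log2 ratios were 0.09 and -0.29, and the spots of the arrays did not overlap, from 0.07 to 0.12 against from -0.31 to -0.26. The mean was -0.10 ± 0.27 (SD, n = 2 arrays) with a limma interval from -0.55 to 0.36 and an adjusted p of 0.927.

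Erbb4 encodes the neuregulin receptor of many neurons and of some epithelia. Neither probe was well above background in any spot of any channel. The brighter probe read between 1.15 and 3.53 in the 4 channels, and the raw signal of both probes was 0.87 to 1.47 times the local background. No ratio is therefore given. Of the other receptors of this family, Erbb2 (log2 ratios 0.41 and 0.03) and Egfr (0.46 and -0.09) were well above background in every channel, as was Erbb3. These family members are named because they can pair with ERBB4 or one another.

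A list of 26 genes held ligands, partners and co-receptors of NGFR and ERBB4, and ligands and receptors of the GDNF family. It also held Sema3a, Sema3c, Ntn1 and Edn3, and not all of its genes serve nerves alone. Of the 26 genes, 23 were measured. Of these, 4 were lower on both arrays, 8 higher on both and 11 opposite, with a median log2 ratio of 0.28 in replicate 1 and 0.03 in replicate 2. Only 1 was called by limma, and it was higher. This was Ereg, the EGF receptor ligand epiregulin, which went from 538 to 817 and from 134 to 480, a mean log2 ratio of 1.22 (adjusted p 0.0016). It also passed the study's filter. Ereg acts on epithelia and mesenchyme at large and is no nerve marker.

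The neurotrophins split between the arrays. Bdnf had log2 ratios of -0.31 and 0.15, Ntf3 -0.15 and 0.56, and Ntf5 -0.51 and 0.14. In these 3 the ratio was negative in replicate 1 and positive in replicate 2, the reverse of Ngfr. Neuregulins differed from one another: Nrg1 had 0.36 and 0.39, and Nrg2 -0.31 and -0.71, while Nrg3 was not well above background. None of these passed the test, and they were picked for mention after their values were seen. By size the list was led, after Ereg, by Nrtn, the GDNF relative neurturin (-0.82 and -0.47, adjusted p 0.215 in limma), and by Ntrk3, the receptor of neurotrophin-3 (-0.50 and -0.76, adjusted p 0.226).

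**Figure D4:**
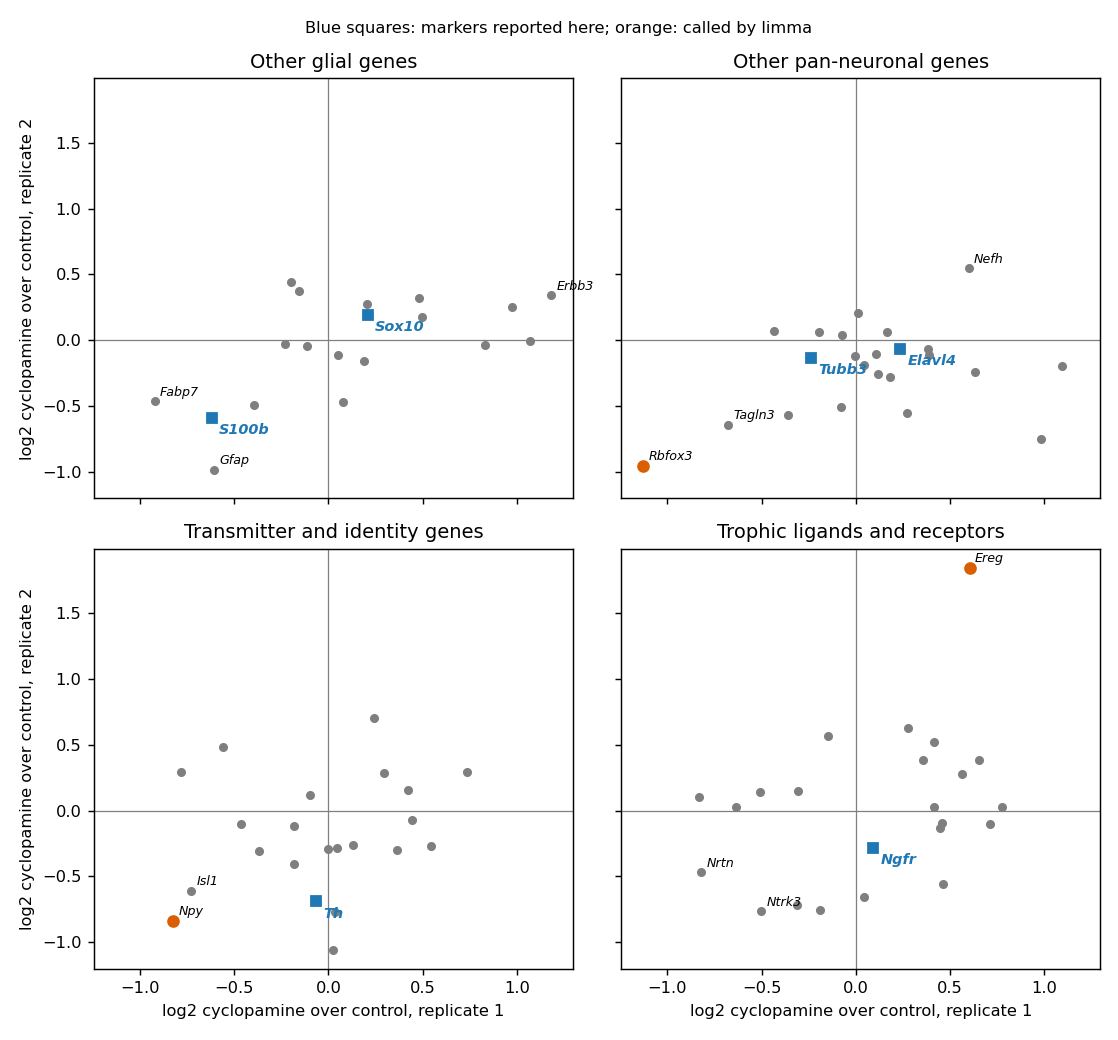
Log2 ratio of cyclopamine over control in replicate 1 (horizontal) against replicate 2 (vertical) for measured glial, pan-neuronal, transmitter and trophic genes (grey), with genes called by limma in orange and the markers followed here as blue squares. S100b lies at the lower left with Fabp7 and Gfap, and the called genes plotted are Rbfox3, Npy and Ereg.

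Th encodes tyrosine hydroxylase, the rate-limiting enzyme of catecholamine synthesis and the common marker of sympathetic axons. Its probe read 669 in the control and 639 after cyclopamine in replicate 1, and 134 and 83.2 in replicate 2. The pools differed little in replicate 1, whereas in replicate 2 the treated pool was 1.61-fold dimmer. The log2 ratios were -0.07 and -0.69, and the spots of the arrays did not overlap, from -0.10 to -0.05 against from -0.76 to -0.63. With a mean of -0.38 ± 0.44 (SD, n = 2 arrays), a limma interval from -0.84 to 0.08 and an adjusted p of 0.643, Th did not pass the test.

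Other genes of noradrenergic neurons did not share 1 pattern. Dbh, which turns dopamine into noradrenaline, had log2 ratios of 0.04 and -0.77. Slc6a2, the noradrenaline transporter, had 0.02 and -1.06, so that both were near 0 in replicate 1 and lower in replicate 2, like Th. Ddc, the next enzyme after TH, had -0.37 and -0.31, and the vesicular monoamine transporter gene Slc18a2 had 0.44 and -0.07. Gch1, which makes the cofactor of TH, had -0.10 and 0.12. These 5 genes were picked for mention after their values were seen, and none was called by limma. Isl1, a transcription factor of these neurons, had -0.73 and -0.61 (adjusted p 0.180 in limma).

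Tubb3 encodes the beta-tubulin of neurons. Its probe read 527 and 447 in replicate 1, and 101 and 92.0 in replicate 2, control before cyclopamine. Treated pools were a little dimmer on both arrays, but 1 of the 4 spots in replicate 2 lay above 0. The log2 ratios were -0.24 and -0.13, with a mean of -0.18 ± 0.07 (SD, n = 2 arrays), a limma interval from -0.64 to 0.27 and an adjusted p of 0.838.

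Elavl4 encodes an RNA-binding protein of neuronal cell bodies. Its brighter probe read 583 and 686 in replicate 1 and 209 and 200 in replicate 2, for log2 ratios of 0.23 and -0.06. The dimmer probe, which starts 5' of the other in the transcript, had -0.07 and -0.43. Neither probe passed the limma test, with means of 0.09 (adjusted p 0.936) and -0.25 (adjusted p 0.769), so the sign of the mean depends on the probe. Elavl4 also spans 148203 bases of the genome, far more than Th with 7217 or S100b with 7484, and its mean turned to -0.04 once the trend with gene length was removed.

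The pan-neuronal list held 22 genes, of which 21 were measured. Of these, 5 were lower on both arrays, 3 higher on both and 13 opposite (61.9%, beside 42.4% of all measured genes). The median log2 ratio was 0.11 in replicate 1 and -0.19 in replicate 2. Limma called 1 as lower and none as higher, and the same gene was the only one past the study's filter. This was Rbfox3, the nuclear splicing factor known as NeuN, which went from 5454 to 2496 and from 447 to 231. Its mean log2 ratio was -1.04 ± 0.12 (SD, n = 2 arrays) with an adjusted p of 0.006 in limma. All 3 of its probes were lower, with means of -1.04, -0.65 and -0.89, but limma did not call the probe at -0.65 (adjusted p 0.211). In replicate 1 its control read 5454, against 527 for Tubb3 and 583 for Elavl4. Which cells carried the Rbfox3 RNA was not tested.

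Beyond Rbfox3, the largest pan-neuronal ratios belonged to Tagln3 and Nefh. Tagln3, a calponin family protein of neurons, had -0.68 and -0.64 (adjusted p 0.191 in limma). Nefh, the heavy neurofilament, had 0.60 and 0.55 (adjusted p 0.316). The control of replicate 2 read only 15.8 for Tagln3 and 14.6 for Nefh.

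Genes of transmitter type and neuronal identity numbered 25, with 23 measured: 7 were lower on both arrays, 5 higher on both and 11 opposite. The median log2 ratio was 0.02 in replicate 1 and -0.26 in replicate 2. Limma called 2 as lower, Npy among them, and none as higher. Npy, the peptide that sympathetic axons release with noradrenaline, went from 1442 to 814 and from 143 to 79.9. It fell by 0.83 on the log2 scale (adjusted p 0.047) and passed the study's filter.

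None of the sensory and cholinergic genes was called by limma. Calca, the gene of the sensory peptide CGRP, had log2 ratios of -0.18 and -0.12, Tac1 -0.56 and 0.48, Chat -0.78 and 0.30, and Vip 0.24 and 0.70. Calca was well above background in only 3 of 4 channels, and in replicate 2 it read 5.84 in the control and 5.39 after cyclopamine. Trpv1 and, of the pan-neuronal list, Scn9a, both channels of pain fibers, were not well above background. The values of Calca, Tac1, Chat and Vip, too, were picked after they were seen.

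Chromaffin cells of paraganglia also make Th, Dbh and Npy, so a list of 6 of their genes was set beside Th. All 6 were measured, 2 were lower on both arrays and 4 opposite, with a median log2 ratio of -0.06 and -0.38. Penk, the enkephalin precursor, fell by 0.99 on the log2 scale (from 74484 to 43650 and from 15382 to 6673, adjusted p 0.011 in limma), and it is also made outside nerves. The sum of the list went from 80977 to 49046 and from 16202 to 7311, most of it Penk. Without Penk it went from 6493 to 5397 and from 820 to 637. Pnmt, the enzyme that defines adrenaline cells, was well above background in 3 of 4 channels, with log2 ratios of -0.25 and 0.41. In replicate 2 Pnmt read only 5.53 in the control and 7.33 after cyclopamine. Cartpt was lower on both arrays, with -0.48 and -0.32. Chga had 0.13 and -0.70, Chgb 0.17 and -0.43, and Slc18a1 0.19 and -0.22. The part of these cells in the values of Th and Npy was not tested.

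Some of the split between arrays was shared by markers of cells other than nerves. The 5 smooth muscle genes had a median log2 ratio of -0.06 in replicate 1 and -0.40 in replicate 2, with Acta2 at -0.06 and -0.92, and their sum went from 271796 to 256133 and from 77593 to 47893. The 4 endothelial genes had 0.60 and -0.13, the 4 leukocyte genes 0.27 and -0.14, and the 6 urothelial genes 0.15 and 0.11. The part of these tissues in the ratios of Th, Ngfr and Elavl4 was not tested.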

How the data were processed

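Total RNA of each pool was amplified by 1 round of T7 transcription and labelled with AlexaFluor555 or AlexaFluor647, per the labels. The authors scanned 2 two-colour Agilent arrays on 1 slide and extracted them with Agilent Feature Extraction (version 10.7.3.1 per the submitters' processing notes, 12.2.0.7 per the file headers). The deposited processed intensity of each channel is background-subtracted and dye-normalized, and its deposited log10 ratio divides red by green. The deposited series table holds a score per probe, a signed fold change, which served only as an alternative. The study's methods name ethanol as the solvent of cyclopamine, whereas the labels name DMF.

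Spots flagged as outliers (2.89% and 3.15%) and control spots were left out, ratios were turned to cyclopamine over control and converted to log2, and up to 4 spots of a probe were averaged. No gene spot was saturated. A probe was well above background in a channel where at least 0.5 of its spots were so flagged, and was tested where this held in 1 group on both arrays. In R 4.3.3, limma 3.58.1 (lmFit, eBayes) gave two-sided p-values, adjusted by Benjamini-Hochberg over 25975 probes, with a threshold of 0.05. It had 1 residual degree of freedom and 51.9 prior ones, so the spread is mostly that of all probes, and each pool stands for 1 sample. In simulated data of this size, limma called 63% of log2 changes of 1 and 100% of log2 changes of 2, and 2 unchanged probes. The simulated noise was independent and equally wide on both arrays. The real log2 ratios had an SD over probes of 0.46 in replicate 1 and 0.30 in replicate 2. They also held a gene length trend in replicate 1. No log2 change smaller than 1 was simulated, so these rates need not hold for the markers. Symbols were updated through RefSeq (GRCm38.p6 table) for 28328 probes that matched by accession, and its gene lengths were used, not its coordinates. Probe sequences are those of the array files.

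The markers and lists were chosen with earlier results of these data known. Named besides the markers were, from each nerve list, every gene called or past the filter and the 3 with the largest mean ratio among those well above background in all channels, and, from each other list, the brightest gene and those called or past the filter. Genes outside this rule are marked in the text, and some genes of the lists are not reported here. Alternatives covered background correction, processed values, dim-probe filter, prior variance, array block, probe and spot summary, gene length, filter limits and each replicate left out. The arrays' number, 2, limits the precision.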

Additional observations from a re-analysis of the deposited data

Results flagged for a closer look

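Ngfr had a log2 ratio of 0.09 in the female pools and -0.29 in the male pools, a difference of 0.38, with every spot of 1 array above 0 and every spot of the other below. The endothelial gene Cdh5 differed by 0.71 between the arrays (0.54 and -0.17) and the macrophage gene Csf1r by 0.61 (0.33 and -0.29). Only the markers and the genes named by the rule above were screened. These 3 were flagged because both of their ratios lay over 2 standard errors of their spots from 0, with opposite signs. Listed genes outside that screen split too, such as Tac1 with -0.56 and 0.48. Of all measured genes, 42.4% went opposite ways, so such a split is common on these arrays. The differences were not tested, because each sex had 1 array, and sex, dye orientation and replicate cannot be told apart.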

How the results depend on the processing

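No alternative with a test called any of the markers, and the lowest adjusted p was 0.206, for S100b. Of 72 values of single markers under the alternatives, 68 kept their direction and 4 reversed. With an array left out, Ngfr ranged from -0.29 (without replicate 1) to 0.093 (without replicate 2) and Elavl4 from -0.063 to 0.23. Elavl4 was also -0.041 with the gene length trend removed and -0.081 as the mean of both probes. The count of markers lower past the study's filter was 0, and 1 with a control intensity over 50 or a common 75th percentile (S100b in both cases). It was 1 to 1 with either array alone, S100b in replicate 1 and Th in replicate 2. Single arrays also passed more genes as lower, 1743 in replicate 1 and 229 in replicate 2. The median of the glial list, 0.06, moved to 0.12 with the length trend removed, 0.0035 with normexp at an offset of 50, -0.034 in the series table, and ranged from -0.018 to 0.065 with an array left out. The cause of these shifts was not tested.

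Each ratio pairs the channels of 1 array, so the array is a block. When the 4 channels were entered as separate samples (no replicate block), limma called 0 probes in either direction (291 lower and 274 higher at an unadjusted p under 0.05), and S100b kept -0.60. With series table values it also called 0 (818 and 1051 unadjusted), with normexp at an offset of 50 it called 42 lower and 12 higher, with an offset of 10 it called 123 and 52, with no dim-probe filter 261 and 216, and with the length trend removed 309 and 259, against 200 and 118. Of the 10 alternatives with a test, Rbfox3 stayed called in 8, Ereg and Penk in 7, Npy and Hhip in 6 and Cidec in 5. Adipoq was gained in 2, and Erbb3, Gfap and Ntrk3 in 1 each. With an array left out, Aqp2 ranged from -0.064 to 0.068, Cdh5 from -0.17 to 0.54 and Csf1r from -0.29 to 0.33, and Csf1r was -0.0070 with the length trend removed. The other probes of Gfap were not lower as a group, with 1 at 0.15 and 1 not above background.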
